A study of Oryza sativa with 13 samples.

Results

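Pericentromeric methylation peaks of rice seed were examined on all 12 chromosomes. A peak was a member when its midpoint lay within 2 Mb of the centromere position, in any of 7 peak lists. The positions used were 16.7, 13.6, 19.4, 9.7, 12.4, 15.3, 12.1, 12.9, 2.8, 8.2, 12 and 11.9 Mb on chromosomes 1 to 12 in that order, giving 12 windows of 4 Mb and 48 Mb in all. Of 302642 peaks in the 7 lists, 43192 were members, and 259051 lay on the rest of the 12 chromosomes. The choice used position only and no measured value. At the window edges, the last 100 kb inside held 268 to 370 peaks per library and the first 100 kb outside held 277 to 380.

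The peaks came from MeDIP-seq, in which an antibody against 5-methylcytosine pulls down methylated DNA fragments that are then sequenced. The material was seed of the japonica cultivar Zhonghua11 (ZH-11), grown under the same light and temperature cycle for all groups and dissected by hand into embryo and endosperm. Stages are given in days after pollination (DAP): 3, 6 and 9 for embryo, and for endosperm the same stages and 2 DAP, with 1 library for each tissue and stage and no other treatment or allele named. The series also holds 6 samples of the cultivar 93-11, which were not analysed here. The labels do not say how many seeds were pooled, and peaks of methylated DNA hold no marker by which the dissected tissue could be checked. Replicates were lacking, and stages of a tissue were used in their place, so every SD and p-value below measures the spread between stages.

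Pericentromeric DNA of plants is rich in transposons and satellite repeats and is packed as heterochromatin. Its cytosines are methylated in the CG, CHG and CHH contexts, maintained by MET1, by chromomethylases and by the RNA-directed pathway with DRM2. Endosperm arises from the fertilised central cell, and in rice and Arabidopsis its maternal genome is demethylated at many sites by DEMETER-type DNA glycosylases. MeDIP peaks report all methylated contexts together and do not separate the parental genomes.

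Depth, the tags (aligned reads) left after filtering, was 8062289 to 8423857 in the embryo libraries and 6833917 to 7465986 in the endosperm libraries. Every embryo library was deeper than every endosperm library, so depth and tissue cannot be told apart. In bulk tissue, stronger methylation in each cell and methylation in more cells cannot be told apart either.

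Peaks covered a larger share of the pericentromeric windows in endosperm than in embryo, the opposite of the order on the rest of the chromosomes. Embryo peaks covered 18.0%, 16.6% and 16.9% of the windows at 3, 6 and 9 DAP. Endosperm peaks covered 18.0%, 19.3%, 19.1% and 19.8% at 2, 3, 6 and 9 DAP. The libraries did not overlap, although embryo at 3 DAP (17.9757%) and endosperm at 2 DAP (18.0244%) nearly met. The embryo mean of 17.2% ± 0.719 (SD, n = 3) was 0.901 times the endosperm mean of 19.1% ± 0.735 (SD, n = 4) (two-sided exact permutation p = 0.0571, the smallest that 35 labellings can give, and 0.0571 after Benjamini-Hochberg adjustment over 5 measures). The tissues overlapped with windows of 3 Mb each side (ratio 0.920) and without the innermost 0.5 Mb (ratio 0.938), each with an adjusted exact permutation p of 0.114.

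On the rest of the chromosomes embryo peaks covered 14.8% ± 0.360 (SD, n = 3) of the bases and endosperm peaks 11.7% ± 0.280 (SD, n = 4), or 1.26 times as much in embryo. At matched stages the endosperm share was 1.07, 1.15 and 1.17 times that of embryo inside the windows at 3, 6 and 9 DAP. Outside it was 0.796, 0.801 and 0.800 times that of embryo at the same stages. The log2 ratio of window to rest averaged 0.22 ± 0.0832 (SD, n = 3) for embryo libraries and 0.70 ± 0.0428 (SD, n = 4) for those of endosperm. The embryo value minus the endosperm value, -0.48, had an exact permutation p of 0.0571, or 0.0857 after adjustment over 3 contrasts, and the libraries did not overlap. In 7 of 7 libraries the windows were covered more densely than the rest, by a mean log2 ratio of 0.49 (exact sign-flip permutation p = 0.0156, adjusted 0.0234).

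The tissue order of the covered share depended on peaks of low fold enrichment, the ratio of tags at a peak to its local background that was deposited with each peak. Peaks with a fold under 5 took up 2.61 ± 0.211 Mb of the embryo windows and 4.12 ± 0.810 Mb of the endosperm windows, with no overlap between tissues. Peaks with a fold of 5 or more took up 5.63 ± 0.217 Mb and 5.02 ± 0.692 Mb, and these values overlapped. With the latter peaks alone the ratio of embryo to endosperm turned to 1.12 (adjusted exact permutation p = 0.357), and the ratio of windows to rest averaged 0.20 on the log2 scale with an adjusted permutation p of 0.0938. The contrast of the tissues against the rest then stood at -0.34, below 0 as with all peaks, and the ratio of embryo to endosperm in the tags of member peaks per 1000000 filtered tags (RPM) was 0.984 (adjusted exact permutation p = 0.914). The low-fold peaks were also the longer ones, with a median length of 1267 ± 81.4 bp in embryo and 1676 ± 73.1 bp in endosperm. The share of covered bases in low-fold peaks was highest in endosperm at 9 DAP, at 56.1%, against 38.7% to 44.9% in the other 3 endosperm libraries and 29.7% to 33.0% in embryo. Embryo member peaks had a median fold of 6.07 ± 0.0757 and endosperm ones of 5.79 ± 0.344, which overlapped.

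**Figure D1:**
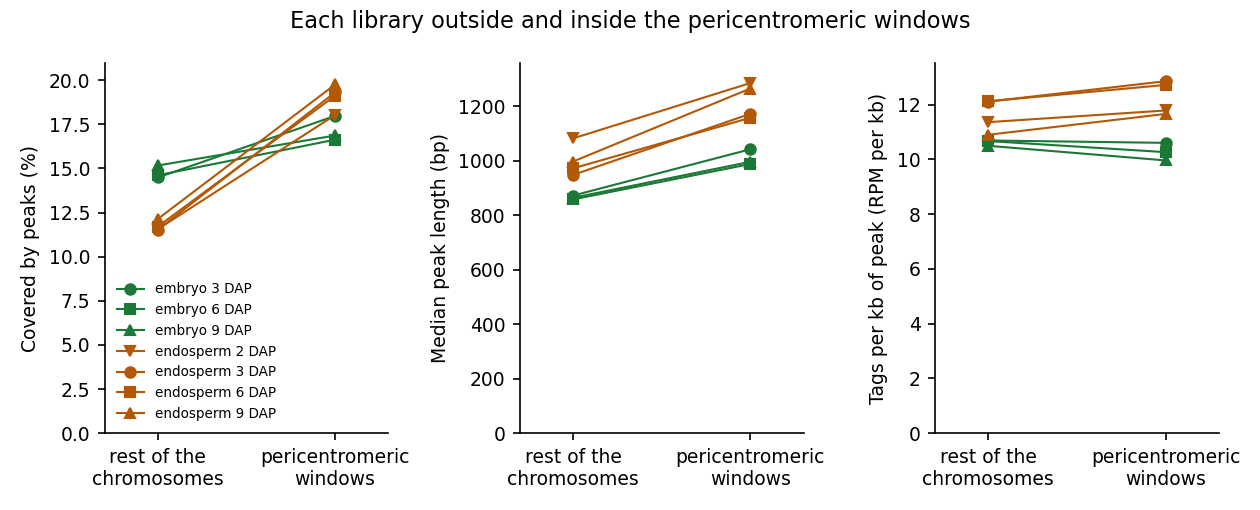
Covered share of bases (%), median peak length (bp) and RPM per kb of peak in each of the 7 libraries, on the rest of the chromosomes and in the pericentromeric windows, with 1 line per library. Embryo libraries (green) lie above endosperm libraries (orange) in covered share outside the windows and below them inside.

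Endosperm windows held fewer but longer peaks. Embryo libraries had 6646, 6643 and 6782 member peaks at 3, 6 and 9 DAP. Endosperm libraries had 5297, 6060, 6068 and 5696 at 2, 3, 6 and 9 DAP, all below every embryo library. The ratio of embryo to endosperm was 1.16 (exact permutation p = 0.0571, adjusted 0.0571). With each list reduced to its 32986 highest-scoring peaks, the length of the shortest list, this ratio turned to 0.710. Equal totals make it the ratio of the member shares of the lists, which was 0.773 in the full lists, so the turn was largely built in. On the rest of the chromosomes embryo had 46625 ± 1799 peaks (SD, n = 3) and endosperm 29794 ± 1445 (SD, n = 4). That ratio was 1.56, so fewer peaks in endosperm were not particular to the windows. Members made up 12.5% ± 0.324 (SD, n = 3) of the embryo lists and 16.2% ± 0.380 (SD, n = 4) of the endosperm lists. Their share of all covered bases was 14.6% ± 0.727 in embryo and 19.3% ± 0.459 in endosperm.

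The median length of a member peak was 1042, 988 and 996 bp in the embryo libraries, in stage order. The endosperm libraries, from 2 to 9 DAP, had medians of 1285, 1172, 1157.5 and 1265 bp, above every embryo library. The ratio of the tissue means was 0.827 (exact permutation p = 0.0571, adjusted 0.0571). Endosperm peaks were longer outside the windows as well, where the medians were 999.8 ± 58.4 bp and, in embryo, 865 ± 7.02 bp. The length difference between tissues inside and outside the windows overlapped and did not pass the test (embryo minus endosperm in log2 ratios -0.07, exact permutation p = 0.171, adjusted 0.171). Member peaks were longer than the other peaks in 7 of 7 libraries, by a mean log2 ratio of 0.26 (exact sign-flip permutation p = 0.0156, adjusted 0.0234).

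The surplus of endosperm coverage lay in the long peaks. Peaks of 3 kb or more numbered 284, 190 and 182 in the embryo windows and 525, 559, 527 and 650 in the endosperm windows. They took up 0.857 ± 0.237 Mb of the embryo windows and 2.40 ± 0.266 Mb of the endosperm windows, 2.80 times as much. For peaks of 2 to 3 kb the embryo mean was 1.29 ± 0.180 Mb and the endosperm mean 1.79 ± 0.138 Mb. Shorter classes had the reverse order: peaks of 1 to 2 kb took up 3.60 ± 0.135 Mb for embryo and 3.34 ± 0.0976 Mb for endosperm, and peaks under 1 kb took up 2.49 ± 0.131 Mb and 1.61 ± 0.253 Mb. None of the 4 length classes overlapped between tissues. Of all peaks of 3 kb or more on the 12 chromosomes, the windows held 25.2% ± 1.26 in embryo and 27.5% ± 0.942 in endosperm, and these shares overlapped.

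Tags in member peaks followed the same order. Scaled to the filtered tags of the library, member peaks held 91496, 81934 and 80655 RPM in embryo at 3, 6 and 9 DAP. They held 101972, 119164, 116750 and 110562 in endosperm at 2, 3, 6 and 9 DAP, above every embryo library. The ratio of the means, 84695 ± 5924 (SD, n = 3) and 112112 ± 7669 (SD, n = 4), was 0.755 (exact permutation p = 0.0571, adjusted 0.0571). On the rest of the chromosomes the peaks held 509415 ± 7287 RPM in embryo and 443149 ± 17160 in endosperm.

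Tag density, the RPM per kb of member peak, was 10.6, 10.3 and 9.96 in embryo and 11.8, 12.9, 12.7 and 11.7 in endosperm. The ratio of the tissue means was 0.839 with no overlap (exact permutation p = 0.0571, adjusted 0.0571). Outside the windows the density was 10.6 ± 0.107 in embryo and 11.6 ± 0.600 in endosperm. Embryo peaks were slightly less dense inside than outside in 3 of 3 libraries (log2 ratio -0.05 ± 0.0325), and endosperm peaks slightly denser in 4 of 4 (0.08 ± 0.0193). That contrast had an exact permutation p of 0.0571, or 0.0857 adjusted. Over the 7 libraries together the ratio was 0.02 (exact sign-flip permutation p = 0.406).

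Inside the windows the endosperm surplus in covered share was largest next to the centromere positions and shrank outwards. Within 0.5 Mb, embryo peaks covered 18.4%, 16.6% and 16.9% at 3, 6 and 9 DAP and endosperm peaks 19.6%, 22.1%, 21.9% and 22.1% at 2, 3, 6 and 9 DAP. These innermost values did not overlap, and the endosperm mean was 1.24 times the embryo mean. The endosperm mean was 1.10 times the embryo mean from 0.5 to 1 Mb, 1.08 times from 1 to 1.5 Mb and 1.02 times from 1.5 to 2 Mb, and the libraries overlapped in each of these bands. From 2 to 4 Mb the shares were 16.8% ± 0.357 in embryo and 17.1% ± 0.638 in endosperm and overlapped too. From 4 to 8 Mb embryo lay above, at 15.3% ± 0.284 against 13.7% ± 0.324, and beyond 8 Mb the shares were 13.98% ± 0.523 and 9.40% ± 0.200. The embryo mean there was 1.49 times the endosperm mean, a wider difference than the opposite one of the innermost band.

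The covered share of the innermost band was 17.3% ± 0.971 in embryo and 21.4% ± 1.23 in endosperm, so that endosperm differed more between the centre and the outer arms than embryo did. Median peak length declined in both tissues over the same distance. Within 0.5 Mb the embryo median was 1113 ± 52.1 bp and the endosperm median 1397 ± 85.1 bp, and the values were 828 ± 3.46 bp and 944.5 ± 57 bp beyond 8 Mb. Tag density in endosperm was 13.02 ± 0.673 per kb within 0.5 Mb and 11.5 ± 0.618 beyond 8 Mb. In embryo it was 10.5 ± 0.386 and 10.9 ± 0.0672 at the same distances.

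**Figure D2:**
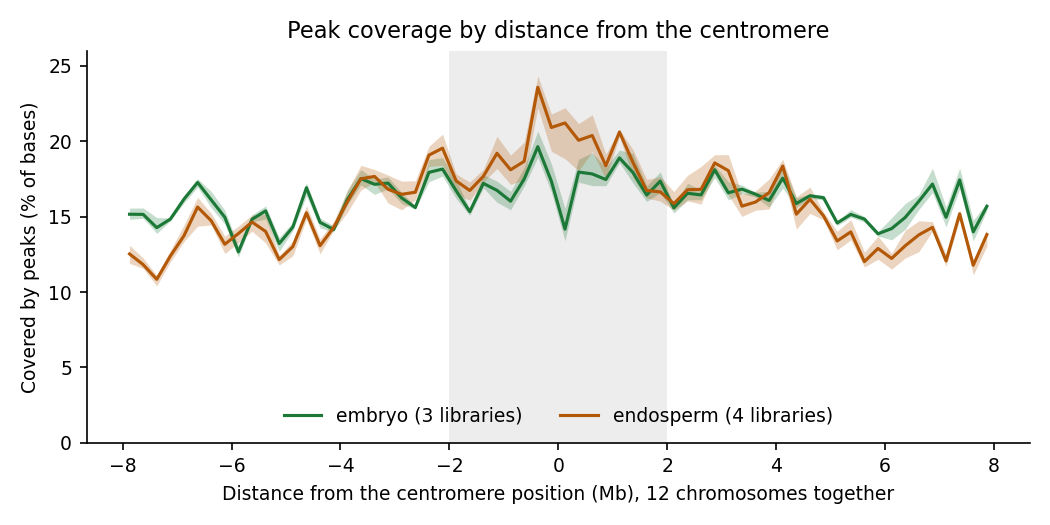
Share of bases covered by peaks (%) against distance from the centromere position (Mb, in steps of 0.25 Mb), summed over the chromosomes that reach that far. Lines are means over the 3 embryo (green) and 4 endosperm (orange) libraries, bands run from the lowest to the highest library, and grey marks the windows of 2 Mb each side. Endosperm lies above embryo around 0 and below it at the outer distances.

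The chromosome 6 window stood apart from the other 11. On chromosome 6 the window was covered to 9.42%, 8.49% and 8.77% in embryo and to 9.68%, 10.3%, 10.5% and 10.7% in endosperm. The next lowest window was covered to between 15.7% and 19.1%, depending on the library, and chromosome 6 was lowest in 7 of 7 libraries. Its peaks were short, with a mean of the medians of 855 ± 10.1 bp in embryo and 940 ± 53.2 bp in endosperm. It held 1.67 ± 1.15 peaks of 3 kb or more in embryo and 9.25 ± 3.20 in endosperm. In embryo its window was covered less than the rest of the chromosome, 8.89% ± 0.481 against 13.3% ± 0.452, while the other 11 windows exceeded the rest of their chromosomes. In endosperm the chromosome 6 window, at 10.3% ± 0.420, was close to the rest at 10.2% ± 0.260.

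The mean covered share was higher in endosperm in 12 of 12 windows. In 8 of them, on chromosomes 1, 2, 4, 5, 6, 7, 8 and 10, every endosperm library lay above every embryo library. Each of these had an exact permutation p of 0.0571, or 0.0857 after adjustment over the 12 windows. On chromosomes 3, 9, 11 and 12 the libraries overlapped, with exact permutation p-values of 0.171, 0.171, 0.114 and 0.114. On the rest of each chromosome embryo lay above endosperm on 12 of 12, with ratios of 1.11 to 1.49. With peaks of a fold of 5 or more alone, no window had endosperm fully above embryo, 3 had embryo fully above, and the endosperm mean was higher in 1.

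The widest difference was on chromosome 4. Its window was covered to 18.0%, 16.3% and 15.7% in embryo at 3, 6 and 9 DAP and to 18.7%, 20.3%, 20.3% and 21.7% in endosperm at 2, 3, 6 and 9 DAP. The embryo mean of 16.6% ± 1.20 was 0.820 times the endosperm mean of 20.3% ± 1.22. Chromosomes 5 and 8 followed with ratios of 0.846 and 0.847. Chromosome 3 had the narrowest difference, 20.2% ± 0.359 against 20.8% ± 0.612, although its peaks differed most in length, at 1054 ± 43.5 bp in embryo and 1374 ± 57.2 bp in endosperm. Chromosome 3 also had the largest surplus of peak number in embryo, 639 ± 23.4 against 494 ± 29.1.

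**Figure D3:**
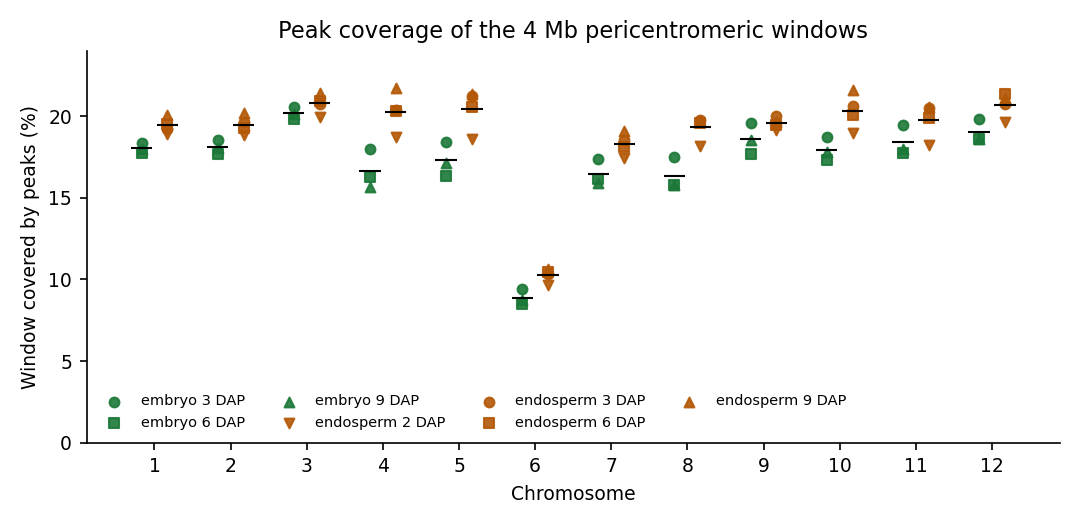
Share of each 4 Mb pericentromeric window covered by peaks (%) by chromosome, with 1 point per library (symbol for stage, green for embryo, orange for endosperm) and a bar at each tissue mean. The chromosome 6 points lie near 10% and below all others, and the orange mean is the higher one on 12 of 12 chromosomes.

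Length, tags and density had the same order in every window. In 12 of 12 windows every endosperm library exceeded every embryo library in median peak length, in RPM, in tag density and in the number of peaks of 3 kb or more. On the rest of the chromosomes together, every endosperm library also exceeded every embryo library in median length and tag density. The share of peaks of 3 kb or more there was 1.38% ± 0.314 in embryo and 5.00% ± 0.475 in endosperm, without overlap. These 3 orders were thus not particular to the windows, whereas RPM on the rest was higher in embryo. The ratio of embryo to endosperm in RPM ran from 0.681 on chromosome 4 to 0.816 on chromosome 3. For median length it ran from 0.767 on chromosome 3 to 0.909 on chromosome 6. Embryo had more peaks without overlap in 9 windows, and peak numbers overlapped on chromosomes 4, 5 and 6. With the windows divided at the centromere position, the endosperm mean of the covered share was higher on 22 of 24 sides. The exceptions were the lower-coordinate side of chromosome 2 (17.6% ± 0.599 against 17.1% ± 0.399) and the higher-coordinate side of chromosome 3 (21.1% ± 0.288 against 20.9% ± 0.918).

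By stage, coverage by all peaks was highest in embryo at 3 DAP and in endosperm at 9 DAP. The 3 DAP embryo library had the highest covered share of the 3 embryo libraries in 12 of 12 windows, and also the highest RPM and tag density in 12 of 12. Within endosperm the 2 DAP library was lowest in covered share in 12 of 12 windows and the 9 DAP library highest in 9. That order depended on low-fold peaks. Endosperm peaks with a fold of 5 or more took up 4.77, 5.54, 5.63 and 4.16 Mb in stage order, lowest at 9 DAP. Embryo peaks of this kind took up 5.85, 5.61 and 5.42 Mb, highest at 3 DAP as with all peaks. RPM values were lower at 9 DAP than at 3 DAP in 12 of 12 windows in both tissues. Tag density was lower at 9 DAP than at 3 DAP in 12 of 12 windows in both tissues as well. Outside the windows, tag density at 3 and 9 DAP was 10.7 and 10.5 in embryo and 12.1 and 10.9 in endosperm. RPM outside was 503655 and 517607 in embryo and 454005 and 430164 in endosperm. Covered share outside was 14.5% and 15.2% in embryo and 11.5% and 12.1% in endosperm. The direction of the lower density, and of the lower RPM in endosperm, was thus not particular to the windows. The size was not the same in embryo, where density differed more inside than outside. The log2 density ratio of windows to rest was -0.01 at 3 DAP and -0.08 at 9 DAP in embryo, and 0.09 and 0.10 in endosperm. Each stage was 1 library, so these stage differences have no replicate check, and windows of 1 library share its depth. Depth also rose with stage, from 8062289 at 3 DAP to 8423857 at 9 DAP in embryo. In endosperm it rose from 6833917 at 2 DAP to 7465986 at 9 DAP, so stage and depth cannot be told apart.

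**Figure D4:**
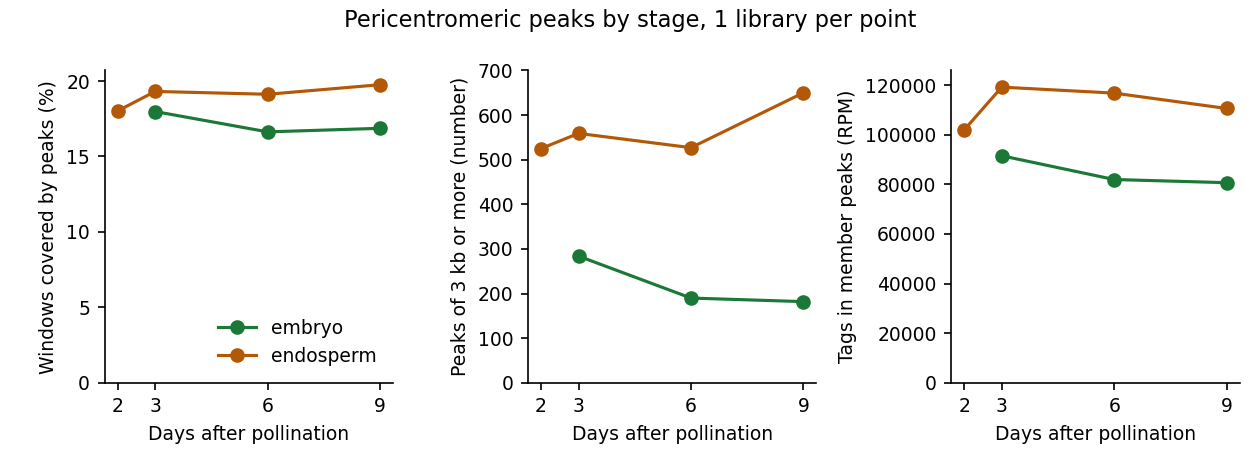
Pericentromeric windows covered by peaks (%), number of peaks of 3 kb or more, and RPM in member peaks against days after pollination, with 1 library per point. The embryo line (green) lies below the endosperm line (orange) at 3, 6 and 9 DAP in each panel.

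Peaks were matched between neighbouring stages by 1 bp of overlap. Inside the windows, 84.4% of embryo peaks at 3 DAP were found again at 6 DAP, and 85.0% of those at 6 DAP at 9 DAP. The exact Clopper-Pearson 95% intervals were 83.5% to 85.2% and 84.1% to 85.8%, and cover counting error only. In endosperm, 82.1% of peaks at 2 DAP recurred at 3 DAP, 84.4% of those at 3 DAP at 6 DAP, and 81.6% of those at 6 DAP at 9 DAP. On the rest of the chromosomes embryo peaks recurred more often, at 88.8% and 88.1%. Endosperm peaks showed no such order, with 80.2%, 84.3% and 82.9% on the rest, below the window value in the first 2 steps and above it in the last.

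Between the tissues, the embryo member peaks that no endosperm peak of the same stage touched made up 26.6%, 29.5% and 35.4% at 3, 6 and 9 DAP. On the rest of the chromosomes these shares were 45.7%, 48.7% and 52.3%. For endosperm member peaks lacking an embryo peak they were 21.8%, 26.2% and 28.1% inside and 21.2%, 23.9% and 26.5% outside. The Jaccard index of 2 lists is the number of bases covered by both over the number covered by at least 1. For the 12 pairs of an embryo and an endosperm list its mean was 0.477 inside the windows and 0.411 outside. For pairs of the same tissue the order was the reverse, with means of 0.648 inside and 0.680 outside for embryo and 0.610 inside and 0.621 outside for endosperm.

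Bins of 100 kb resolved where the tissues parted. Every endosperm library lay above every embryo library in 118 of 480 pericentromeric bins (24.6%), beside 8.54% of all 3725 bins. Every embryo library lay above every endosperm library in 37 pericentromeric bins (7.71%), beside 48.6% of all bins. The chromosome 4, 5 and 8 windows held 16, 15 and 14 of the bins with endosperm above, and the chromosome 12 window held 5.

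The bin with the largest endosperm surplus adjoined the centromere position of chromosome 2, from 13600001 to 13700000. It was covered to 15.0%, 8.36% and 8.47% in embryo and to 20.9%, 35.2%, 26.95% and 33.4% in endosperm. The next 2 bins also adjoined a centromere position. On chromosome 8, from 12900001 to 13000000, embryo averaged 11.0% and endosperm 27.4%. On chromosome 4, from 9700001 to 9800000, embryo averaged 7.76% and endosperm 23.3%. The largest embryo surplus lay 1.35 Mb from the position on chromosome 3, from 20700001 to 20800000, where embryo was covered to 27.5%, 25.5% and 25.2% and endosperm to 19.4%, 15.95%, 14.01% and 15.8%. These bins were ranked by the same values and carry no test.

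Touching or overlapping peaks of any list were joined, giving 70419 merged regions, of which 9170 were pericentromeric. Embryo-only regions, with a peak in all 3 embryo and no endosperm library, numbered 797 inside the windows (8.69%), beside 19.5% of all regions. Endosperm-only regions, with a peak in all 4 endosperm and no embryo library, numbered 189 (2.06%), beside 1.73% of all regions. The latter rule asks for 4 libraries and the former for 3. When each list was reduced to equal numbers of peaks by score, the order turned, to 335 embryo-only and 636 endosperm-only regions. That step removed more peaks from every embryo list than from any endosperm list, by construction. Without endosperm at 2 DAP there were 321 endosperm-only regions, and without endosperm at 3 DAP there were 301.

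Among embryo-only regions the longest was on chromosome 9, 1.93 Mb from the centromere position, from 4725872 to 4732681 (6810 bp). It held 89.1, 66.2 and 79.9 RPM in embryo at 3, 6 and 9 DAP and no peak in endosperm. Among endosperm-only regions the longest was on chromosome 2, 0.270 Mb from the position, from 13327296 to 13333629 (6334 bp). It held 41.9, 50.6, 44.4 and 75.8 RPM in endosperm at 2, 3, 6 and 9 DAP and no peak in embryo. The fold enrichment of their peaks was 2.89 to 3.38 and 3.22 to 4.04. Tags that fell in no called peak are not in the lists, so no peak does not mean no tags. Of the 5 longest regions of each kind, 2 embryo-only and 4 endosperm-only ones lay within 1 Mb of a centromere position. Of all such regions in the windows, 305 of 797 embryo-only and 91 of 189 endosperm-only ones did. With 5 regions of each kind, picked by length, the 2 kinds cannot be compared in this.

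Regions shared by all 7 libraries were more frequent inside the windows, 3009 of 9170 (32.8%) against 25.4% on the rest of the chromosomes. Their median length was 2068 bp inside the windows and 1735 bp outside. Tags in the shared regions were tested with edgeR's quasi-likelihood test over all 18550 shared regions, scaled by the filtered tags of each library. Of the pericentromeric ones, 1367 (45.4%) had more tags in endosperm, beside 32.2% of all shared regions. Another 139 (4.62%) had more tags in embryo, beside 14.3% of all shared regions. The median log2 ratio of endosperm to embryo was 0.49 inside the windows, 0.24 outside and 0.29 over all shared regions.

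The split depended on the scaling. With edgeR's TMM scaling, which lowers the median of all shared regions from 0.29 to 0.04, the pericentromeric calls were 723 with more tags in endosperm and 261 with more in embryo. Endosperm took 90.8% of the pericentromeric calls under the first scaling and 73.5% under TMM. Over all shared regions it took 69.3% and 42.3%. Under TMM the median log2 ratio of the pericentromeric regions was 0.24, still above that of all shared regions.

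Endosperm peaks also filled more of each shared region. They covered 79.2% ± 2.86 (SD, n = 4) of the bases of the shared pericentromeric regions, against 65.5% ± 2.54 (SD, n = 3) for embryo peaks. The number of peaks per shared region was 1.09 ± 0.0241 in endosperm and 1.16 ± 0.00458 in embryo. Since only tags inside called peaks were counted, a longer peak brings in more tags, and the part of peak extent in the tag calls was not tested.

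By distance, 55.3% of the shared regions within 0.5 Mb of the centromere position had more tags in endosperm, then 42.9%, 42.9% and 40.8% in the next 3 bands of 0.5 Mb. The share was 38.6% from 2 to 4 Mb, 33.5% from 4 to 8 Mb and 24.1% beyond. Among the windows, chromosome 4 had the highest share with more tags in endosperm, 144 of 264 (54.5%), and chromosome 6 the lowest, 58 of 156 (37.2%).

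**Figure D5:**
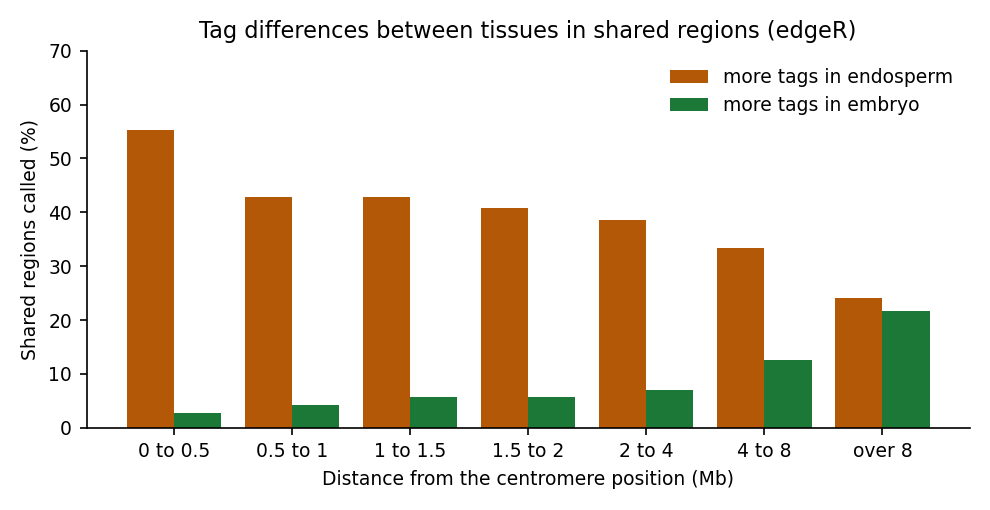
Share of shared regions (%) called by edgeR at an adjusted p of 0.05 with more tags in endosperm (orange) or in embryo (green), by distance from the centromere position (Mb), scaled by filtered tags. The orange bars run from 55.3% in the innermost band to 24.1% beyond 8 Mb, and the green bars from 2.84% to 21.7%.

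The longest shared region of each window was taken as an example. The library with the most covered bases was an endosperm one in each of the 12, so the choice by length favoured regions with long endosperm peaks, and their tag counts are examples and no support for the tissue difference. Of these 12 regions, 11 had more tags in endosperm by edgeR's quasi-likelihood test at an adjusted p of 0.05, with log2 ratios of 0.71 to 2.18, beside 45.4% of all shared pericentromeric regions. Under TMM scaling 8 of the 12 did, the regions on chromosomes 3, 6 and 12 no longer passing. Chromosome 10 had the largest ratio of the 12, in the region from 6626616 to 6637617. It held 23.4, 24.2 and 18.5 RPM in embryo at 3, 6 and 9 DAP and 72.0, 125, 155 and 47.4 in endosperm at 2, 3, 6 and 9 DAP. Every endosperm value was above every embryo value (log2 ratio 2.18, SE 0.37, edgeR adjusted p = 0.00129).

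The centromere positions were rounded values in Mb, so small distances from them are approximate. Of the 12 longest shared regions, the one closest to its position was on chromosome 7, from 12113104 to 12120965, 0.0170 Mb from the position. Its embryo values were 40.8, 29.8 and 31.9 RPM and its endosperm values 72.1, 92.3, 72.3 and 112. The tissues did not overlap (log2 ratio 1.35, SE 0.20, edgeR adjusted p = 0.000778). On chromosome 11 the region from 11946221 to 11954689, 0.0495 Mb from the position, held 40.7, 42.3 and 35.5 RPM in embryo and 73.5, 89.7, 102 and 79.4 in endosperm. It had the smallest adjusted p of the 12 (log2 ratio 1.12, SE 0.17, edgeR adjusted p = 0.000677).

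Stages differed widely in some of these regions. On chromosome 12, from 9999778 to 10010013, endosperm held 104, 27.8, 173 and 45.4 RPM at 2, 3, 6 and 9 DAP, and embryo 37.7, 34.0 and 31.3 at 3, 6 and 9 DAP. The 3 DAP endosperm library lay below every embryo library there (log2 ratio 1.35, SE 0.50, edgeR adjusted p = 0.0464). This call was lost under TMM (edgeR adjusted p = 0.118), and without any 1 of the 3 embryo libraries or the 6 DAP endosperm library (edgeR adjusted p = 0.0838 to 0.127). On chromosome 2, from 14232024 to 14239787, embryo held 74.0, 60.5 and 57.7 RPM and endosperm 97.5, 100.4, 55.0 and 87.3. The tissues overlapped there and the difference did not pass the test (log2 ratio 0.41, SE 0.21, edgeR adjusted p = 0.132). All coordinates are those of the deposited peak lists. The genome build is not given in the sources used here, so no gene, repeat or sequence was assigned to these regions, and the centromere positions could not be matched to a build.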

How the data were processed

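The authors deposited 1 peak list per ZH-11 library. Bowtie2 and MACS are named in the submitters' processing notes. Per the file headers, each list was called with MACS 1.4.2 on that library alone and without a control, at a p-value limit of 1.00e-05, with an effective genome of 360 Mb, tags of 41 bp and a local background over 10 kb. The deposited values per peak are a whole count of tags, not normalized, a score of -10 times the log10 of the p-value, and a fold ratio over local background; both of the latter are the authors' own. Aligner settings and genome build are not stated there.

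Covered bases, lengths and tags per 1000000 filtered tags (RPM) were computed with numpy 2.4.6, pandas 2.3.3 and scipy 1.17.1. Tissues were compared by two-sided exact permutation, and windows with the rest by sign-flip permutation over 7 libraries. Tag counts in shared regions were tested with edgeR 4.0.16 (R 4.3.3) with Benjamini-Hochberg adjustment at 0.05, and DESeq2 1.42.0 served as an alternative; the code was tested on simulated data. P-values measure spread between stages, which may be technical. With PCR and no molecular identifiers, reads need not be independent molecules. Named regions were the longest shared region of each window and the 5 longest embryo-only and endosperm-only regions. Members, lists and named regions were chosen with earlier results of these data known. Alternatives covered window width, equal numbers of peaks, score, fold, library left out, scaling, tool, a mean of 50 tags and a stage block. No pair of lists shared more than 1 peak with the same start, end and tag count.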

Additional observations from a re-analysis of the deposited data

Results flagged for a closer look

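In 3 of 100 groups of 4 endosperm libraries tested by Dixon's criterion, 1 library stood apart from the others, and chance alone gives about 1 in 20. The chromosome 6 window held 14 peaks of 3 kb or more in endosperm at 9 DAP, against a lowest value of 7. The chromosome 7 window held 48 such peaks in endosperm at 9 DAP, against a lowest value of 35. The chromosome 8 window was covered to 18.2% in endosperm at 2 DAP, below the other 3 endosperm libraries.

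The longest member peak differed between 3 and 9 DAP in opposite directions in the tissues. It was 8309 bp at 3 DAP and 6680 bp at 9 DAP in embryo, a difference of -1629 bp, and 8279 and 8630 bp in endosperm, a difference of 351 bp. Each value is 1 library, and the difference was not tested.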

How the results depend on the processing

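With 3 against 4 libraries no exact permutation p between tissues can fall below 0.0571, or below 0.1 to 0.133 with 1 library left out, so only the direction of these values could be compared. Over all alternatives the direction held in 69 values of the tissue ratios and reversed in 2, and it held in 41 values of the tissue contrasts against the rest and reversed in 1. Of the window-to-rest ratios, 40 kept direction and side of the threshold, 1 reversed and 1 fell short of it. Leaving out endosperm at 2 DAP and keeping only the stages sampled in both tissues gave the same set of libraries. The tallies of alternatives, here and below, count that set under both names. With a fold enrichment of 5 or more, the covered share ratio of embryo to endosperm reversed to 1.12 and the length contrast against the rest to 0.00597. The covered share of windows over the rest was then 0.20 (log2, adjusted permutation p = 0.0938), and no window had endosperm fully above embryo (0 of 12). Of 1425 shared pericentromeric regions in that setting, edgeR called 580, 483 of them with more tags in endosperm. Over all 11136 shared regions it called 2613 with more tags in endosperm and 1986 with more in embryo. When each list was reduced to equal numbers of peaks by score, the peak number ratio reversed to 0.710, and embryo-only and endosperm-only regions were 335 and 636. Of 1910 shared pericentromeric regions, 972 were then called, 849 with more tags in endosperm. Over all 12558 shared regions the calls were 3794 higher in endosperm and 2224 in embryo. With a score of 100 or more, embryo-only regions were 511. Called regions were then 765 of 1508, with 703 higher in endosperm and 62 in embryo, beside 3255 and 1063 over all 9697 shared regions.

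Windows of 1 Mb each side held 305 embryo-only and 91 endosperm-only regions and 794 called regions of 1511 tested, 740 higher in endosperm and 54 in embryo. Endosperm took 93.2% of these calls, beside 69.3% over all shared regions. Windows of 3 Mb held 1309 embryo-only regions. Of 4481 shared regions there, 251 had more tags in embryo, beside 2652 of all 18550. In that setting 3 windows had endosperm fully above embryo. Without the innermost 0.5 Mb that number was 2, and the density ratio of windows to the rest reversed to -0.0027. TMM scaling gave 984 calls of 3009 shared pericentromeric regions, 723 higher in endosperm and 261 in embryo, and DESeq2 gave 814 and 254. Over all 18550 shared regions the calls were 2875 and 3914 under TMM and 3288 and 3842 with DESeq2. Both tissues have a library at 3, 6 and 9 DAP, and a paired fit over these 3 stages took stage as a block. It called 1751 and 187 of 3283 pericentromeric regions, against 1588 and 179 in the same libraries with no block. Over all 20323 shared regions of these libraries the calls were 7597 and 3396 with the block and 6884 and 3264 without. Endosperm-only regions numbered 321 over the stages sampled in both tissues. They numbered 299 where peaks of a library had to cover 50% of a region to count as present. Under that rule embryo peaks covering less than 50% of a region counted as absent. Among the named shared regions, 132 alternative values kept their call, 15 fell short of the threshold and 2 newly passed it. Leaving out 1 library at a time gave 213 to 321 endosperm-only regions, 850 to 1020 embryo-only regions and 1030 to 1767 called regions. Endosperm took 89.4% to 91.2% of those calls, beside 65.2% to 69.7% of the calls over all shared regions. The smaller windows hold fewer regions and the stricter lists fewer peaks by construction, and the 50% rule changes what counts as absent. Equal numbers of peaks remove more embryo than endosperm peaks by construction. The cause of the other differences was not tested. Depth limits every share to called peaks, since tags outside peaks are not in the lists.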

Other observations

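Each window's longest stretch without a peak in any of the 7 lists was 25.2 to 220 kb long, with a median of 44.8 kb. The longest lay on chromosome 11, from 12329168 to 12549568, and the next on chromosome 7, from 11966238 to 12091243 (125 kb). Only the stretch on chromosome 10, from 8160689 to 8207482, held the centromere position itself, and 4 of the 12 stretches were centred within 500 kb of one. Of the 480 bins of 100 kb, 1 had no peak in any list.

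In the embryo windows, of 7481 regions with a peak in embryo, 65.0% were present at every stage, 12.8% were gained (absent at first, then present through 9 DAP) and 11.4% were lost (the reverse). In the endosperm windows, of 7312 regions, 51.5% were present at every stage from 2 to 9 DAP, 13.8% were gained and 9.82% were lost. On the rest of the chromosomes 67.5% of embryo regions and 50.02% of endosperm regions were present at every stage, close to the shares in the windows. The gained and lost shares there were 14.9% and 8.15% in embryo and 15.6% and 10.2% in endosperm.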
